A study of Mus musculus with 8 samples.

Results

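The genes described here are the epidermal growth factor (EGF) receptors Egfr, Erbb2, Erbb3 and Erbb4 and the ligands Tgfa, Areg, Ereg, Hbegf, Btc and Egf, measured in mouse pancreas after deletion of Lmna. They were chosen by name, and a row of the array was taken for a gene when the platform annotation gave that symbol alone. Of the 10 genes, 9 had such a row among the 22180 genes tested, namely all 4 receptors and 5 of the 6 ligands. Areg was not analysed here. Ereg had 2 such rows, and the row with the higher mean over the 8 arrays was kept. No filter on low values was applied, so these 9 genes are the whole measured set.

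The samples were total RNA of whole pancreas from C57 BL6 mice, hybridised one sample to an array. The LmnaKO group (KO) held 4 arrays and the LmnaWT group (WT) held 4, each with 3 males and 1 female, the female being replicate 4. Both groups had received tamoxifen by intraperitoneal injection at 3 mg per 40 g of body weight and were taken 6 days later. The series title places the ablation in acinar cells, the enzyme-secreting cells of the exocrine pancreas; no label used here names the Cre driver, the age of the animals or any pooling. The labels list replicates as separate samples without naming animals, so p-values cover the spread between samples, which may be technical. Values are log2 expression values, and the number of arrays limits their precision.

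EGF family ligands are made as membrane-bound precursors, which ADAM proteases cut to release the active factor. Binding of a ligand brings receptors together as pairs, which signal through the RAS and ERK kinases, through PI3K and AKT, and through STAT factors. EGFR binds EGF, TGF-alpha, amphiregulin, epiregulin, HB-EGF and betacellulin; ERBB3 and ERBB4 bind neuregulins, and ERBB4 binds some of the EGFR ligands too, whereas ERBB2 has no known ligand and serves as a partner. In mouse pancreas this pathway is known as a driver of the change of acinar cells into duct-like cells.

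The pancreas label was checked first. In the list of 15 acinar markers 12 were measured, and their mean level was 8.94 to 9.13 in KO arrays and 9.60 to 9.71 in WT arrays. The elastase Cela3b, named outside the rule, read 10.8 to 11.1 in KO and 11.5 to 11.7 in WT, so acinar RNA was abundant in all 8 samples. Lmna, the deleted gene, read 2.33, 2.58, 2.73 and 2.61 in KO 1 to KO 4 and 2.54, 3.13, 2.67 and 2.88 in WT 1 to WT 4. That difference of -0.24 ± 0.15 (log2, KO minus WT, ± SE, limma adjusted p = 0.264) did not pass; whether the probes lie in the deleted part is unknown, so these values leave the genotype labels unchecked. Over all genes 4792 (21.6%) passed at an adjusted p under 0.05 (limma, Benjamini-Hochberg). Higher in KO were 3241 (14.6%) and lower 1551 (6.99%). Of the calls 67.6% were thus higher in KO, against 51.8% after repeated quantile normalization, 56.4% after cyclic loess and 87.7% after median centring. The interquartile range of the rows was 2.45 to 2.65 in KO arrays and 2.06 to 2.20 in WT arrays, so the KO values were spread more widely.

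Among the receptors and ligands, 2 receptors were higher in KO pancreas, Egfr and Erbb3, and 1 ligand, Ereg, was lower. The other 6 measured genes did not pass. The share called was 33.3% of the 9 measured genes, against 21.6% of all genes, and with so few genes this share does not set the family apart. The median change was 0.08 over the 9 genes and -0.06 over all genes. The KO and WT arrays did not overlap in 3 of the 9 genes, and over all genes this held for 27.4%.

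**Figure D1:**
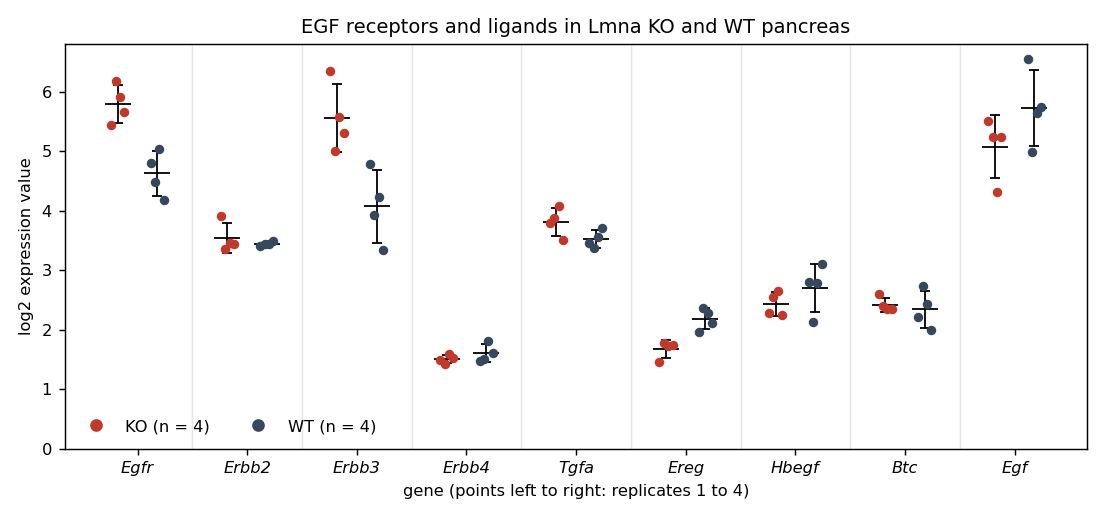
Log2 expression value (vertical axis) of the 9 measured EGF receptors and ligands in each array. Points are replicates 1 to 4, KO to the left of WT for each gene, with the mean and SD as bars (n = 4 each). All KO arrays lay above all WT arrays for Egfr and Erbb3 and below them for Ereg, and the groups overlapped for the other 6 genes.

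Egfr encodes the receptor after which the pathway is named. It read 5.44, 6.18, 5.90 and 5.65 in KO 1 to KO 4, against 4.80, 4.48, 5.04 and 4.18 in WT 1 to WT 4. The lowest KO array lay 0.40 above the highest WT array. The means were 5.79 ± 0.32 in KO and 4.62 ± 0.38 in WT (SD, n = 4 each). Egfr rose by 1.17 ± 0.22 (log2, ± SE, 95% confidence interval 0.69 to 1.65, limma adjusted p = 0.00724), a fold of 2.25. Each of the 4 differences between same-numbered arrays was positive, from 0.64 for replicate 1 to 1.71 for replicate 2. The change was smaller by over 1.5 times after repeated quantile normalization (0.77, limma adjusted p = 0.0478) and after cyclic loess (0.77, adjusted p = 0.0415), and among males only the call was lost (1.07, adjusted p = 0.0509).

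Erbb3 encodes a receptor with little kinase activity of its own that binds neuregulins and carries docking sites for PI3K. It read 6.34, 4.997, 5.58 and 5.30 in KO 1 to KO 4, against 4.79, 3.93, 4.23 and 3.34 in WT 1 to WT 4. The groups did not overlap, and KO 2 lay nearest to the WT arrays, 0.21 above WT 1. The means were 5.55 ± 0.58 in KO and 4.07 ± 0.61 in WT (SD, n = 4 each), the widest spread within groups among the receptors. Erbb3 rose by 1.48 ± 0.34 (log2, ± SE, interval 0.72 to 2.24, limma adjusted p = 0.0161), a fold of 2.80. Replicate 1 was the highest array of each genotype, and the 4 same-numbered differences ran from 1.07 to 1.96, a narrower range than that of either group of arrays. The call was lost after repeated quantile normalization (1.11, adjusted p = 0.0706), after cyclic loess (1.11, adjusted p = 0.054) and among males only (1.32, adjusted p = 0.0768).

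Erbb2 and Erbb4 did not pass. Erbb2, the partner receptor without a ligand, read 3.91, 3.35, 3.45 and 3.44 in KO 1 to KO 4 and 3.40, 3.44, 3.44 and 3.48 in WT 1 to WT 4. The WT arrays were within 0.1 of one another, and KO 1 stood above the other 7 arrays. Its difference was 0.10 ± 0.14 (interval -0.21 to 0.40, limma adjusted p = 0.617), so a change as large as that of Egfr lies outside its interval. The sign turned without KO 1 (-0.03), after repeated quantile normalization (-0.11) and after cyclic loess (-0.06). Erbb4, a neuregulin receptor with an active kinase, read 1.49, 1.42, 1.59 and 1.52 in KO 1 to KO 4 and 1.48, 1.51, 1.82 and 1.60 in WT 1 to WT 4. That row was dim on every array, at percentile 22.3 of the mean values of all genes, and its difference was -0.10 ± 0.12 (interval -0.36 to 0.16, limma adjusted p = 0.537). The sign turned after repeated quantile normalization (0.05), cyclic loess (0.08) and median centring (0.04). Whether a row this dim can show a change is not known, since no background level of single rows was available.

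Whether the receptors changed unequally was tested on the difference between 2 receptors within each array, for the 6 pairs. The change of Erbb2 minus that of Erbb3 was -1.39, and the change of Egfr minus that of Erbb2 was 1.07. The first did not overlap between groups (exact two-sided permutation p = 0.0286, which is the lowest possible with 4 and 4 arrays) and the second did (exact p = 0.0571). Against Erbb4 the excess was 1.27 for Egfr and 1.58 for Erbb3 (exact permutation p = 0.0286 each). Adjusted over the 6 pairs, these p-values were 0.0571 for the 3 pairs at the smallest p and 0.0857 for Egfr and Erbb2, with arrays taken as unpaired. Within same-numbered arrays the excess of Egfr over Erbb2 ran from 0.14 to 1.79 and was positive in 4 of 4, and that of Erbb2 over Erbb3 ran from -2.01 to -1.05 and was positive in 0 of 4. Against Erbb4 the excess was positive in 4 of 4 for Egfr (0.64 to 1.80) and for Erbb3 (1.16 to 2.04). A paired exact test on 4 pairs cannot go below p = 0.125. Egfr and Erbb3 differed by -0.31 in their change (exact p = 0.6). The median change of all genes differed by level: 0.50 at a mean of 5 to 6, 0.45 at 4 to 5, 0.26 at 3 to 4 and -0.19 below 2. The pair tests did not allow for this. Against the dim Erbb4 row they cannot decide whether the receptors changed unequally. Egfr and Erbb3 had passed in these same arrays, so the tests are no separate support for their rise.

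**Figure D2:**
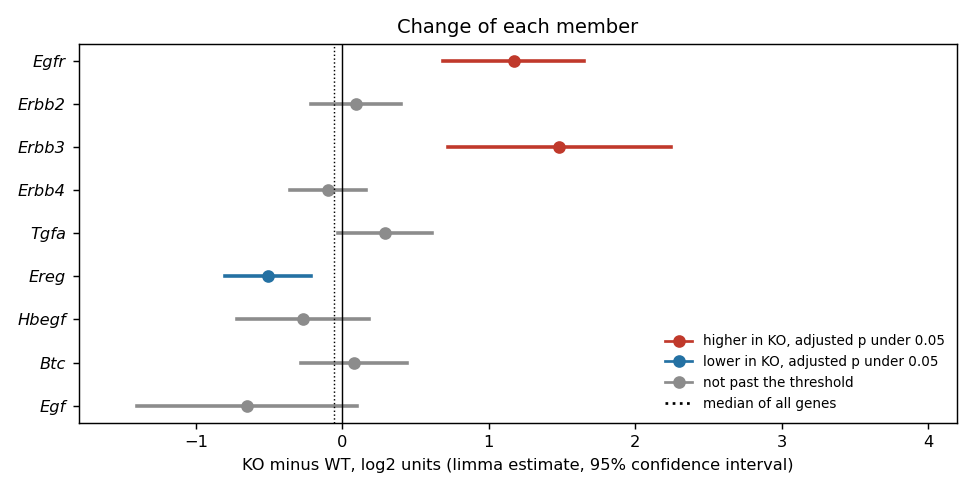
Change of each measured gene (KO minus WT, log2 units, horizontal axis) with its 95% confidence interval from limma, n = 4 arrays per genotype. The intervals of Egfr (0.69 to 1.65) and Erbb3 (0.72 to 2.24) lie right of 0 and that of Ereg (-0.80 to -0.21) left of it; the dotted line is the median of all genes (-0.06).

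Values at the middle of the array's range were more often higher in KO, and this bears on both receptors. Of the 1911 genes with a mean of 5 to 6, where Egfr lies (5.21), 39.7% passed as higher and the median change was 0.50. Of the 2797 genes with a mean of 4 to 5, where Erbb3 lies (4.81), 36.6% passed as higher and the median change was 0.45. The changes of Egfr and Erbb3 thus exceeded the medians of genes at their level, while a call at that level was common. Below a mean of 2, where Ereg and Erbb4 lie, 6.93% passed as lower and 0.486% as higher, with a median change of -0.19.

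Promoters of 3 receptors are shown, that of Egfr, which rose, and those of Erbb2 and Erbb4, which did not pass; Erbb3 was not analysed here in this respect. The sequences are the 250 bases before the annotated start, on the strand of the gene, from RefSeq (GRCm38.p6). They lie at chr11:16751953-16752202 (plus strand) for Egfr, chr11:98412234-98412483 (plus strand) for Erbb2 and chr1:69108060-69108309 (minus strand) for Erbb4. Capitals mark matches to the SP1 box GGGCGG or, on the other strand, CCGCCC.
Egfr: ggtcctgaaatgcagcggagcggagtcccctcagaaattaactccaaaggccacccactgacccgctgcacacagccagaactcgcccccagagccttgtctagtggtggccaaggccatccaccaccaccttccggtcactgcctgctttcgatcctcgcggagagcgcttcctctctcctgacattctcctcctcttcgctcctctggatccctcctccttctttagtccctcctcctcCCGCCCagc
Erbb2: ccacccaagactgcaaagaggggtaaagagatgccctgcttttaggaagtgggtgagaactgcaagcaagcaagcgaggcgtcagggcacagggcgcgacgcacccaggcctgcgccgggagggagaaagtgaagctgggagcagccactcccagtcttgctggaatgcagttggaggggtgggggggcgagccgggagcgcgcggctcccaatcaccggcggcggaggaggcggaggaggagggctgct
Erbb4: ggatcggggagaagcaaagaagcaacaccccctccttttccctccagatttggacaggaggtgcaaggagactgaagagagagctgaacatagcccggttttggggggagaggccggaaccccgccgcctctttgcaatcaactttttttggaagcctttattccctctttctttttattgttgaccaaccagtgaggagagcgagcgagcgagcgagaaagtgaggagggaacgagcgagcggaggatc
The Egfr window held 1 SP1 box and those of Erbb2 and Erbb4 held 0. The box did not follow the calls, since the window of Tgfa, which did not pass, held 2. Those of Btc and Egf, which did not pass either, held 0. Of the 32851 windows of this length, 32.7% hold at least 1. G and C made up 60.8% of the Egfr window, 66% of that of Erbb2 and 54% of that of Erbb4, and the median over all windows was 52.4%. No match was found in these 3 windows, on either strand, to the EGR motif GCGNGGGCG (4.7% of all windows), the AP-1 motif TGANTCA (6.7%), the ATF4 and CHOP motif TTGCATCA (0.8%) or the TATA box TATAAA (12.4%). The SP1 box and the EGR motif can overlap. A match describes letters and shows no binding.

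None of the 5 measured ligands passed as higher in KO. Tgfa, whose product TGF-alpha is the ligand known to drive duct-like change when overproduced in mouse pancreas, read 3.79, 3.87, 4.08 and 3.51 in KO 1 to KO 4, against 3.45, 3.37, 3.56 and 3.71 in WT 1 to WT 4. Replicates 1 to 3 were higher in KO by 0.34 to 0.52, and replicate 4, the female, was lower by 0.19. The difference of 0.29 ± 0.14 (interval -0.03 to 0.61, limma adjusted p = 0.16) did not pass. It was 0.05 after repeated quantile normalization, 0.09 after cyclic loess, 0.45 among males only and 0.43 after median centring. With only 1 female per genotype the gap between the sexes in this difference (-0.64, unadjusted p = 0.0641) did not pass after adjustment over all genes, nor did that of any other member. Of the 9 genes, 0 had an unadjusted p under 0.05 for it (limma).

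Egf, the founding ligand, read 5.51, 5.24, 4.31 and 5.24 in KO 1 to KO 4, against 6.54, 4.99, 5.64 and 5.74 in WT 1 to WT 4. The groups overlapped because WT 2 lay among the KO arrays. Means were 5.08 ± 0.52 in KO and 5.73 ± 0.64 in WT (SD, n = 4 each), and the difference of -0.65 ± 0.34 (interval -1.40 to 0.10, limma adjusted p = 0.174) did not pass. The call depended on the scaling: Egf passed as lower after repeated quantile normalization (-1.06, adjusted p = 0.0427) and after cyclic loess (-1.06, adjusted p = 0.0432). Without KO 3 the difference was -0.40 and without WT 1 it was -0.38, both smaller by over 1.5 times.

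Ereg, encoding epiregulin, read 1.45, 1.77, 1.73 and 1.74 in KO 1 to KO 4, against 1.97, 2.37, 2.28 and 2.12 in WT 1 to WT 4. All KO arrays lay below all WT arrays, by at least 0.20. Ereg fell by 0.51 on the log2 scale (SE 0.13, interval -0.80 to -0.21, limma adjusted p = 0.025). The further row of Ereg gave 1.58, 1.52, 1.55 and 1.33 in KO and 1.97, 2.94, 1.99 and 1.98 in WT, a difference of -0.72 ± 0.22 (adjusted p = 0.0413 with every row tested). Both rows were dim, and the call was lost after repeated quantile normalization (-0.36, adjusted p = 0.107), cyclic loess (-0.30, adjusted p = 0.138) and median centring (-0.37, adjusted p = 0.0562), among males only (-0.55, adjusted p = 0.102), and without KO 1, KO 3, KO 4, WT 2 or WT 3 in turn (-0.44, -0.53, -0.53, -0.45 and -0.48).

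Hbegf encodes HB-EGF, a ligand of EGFR and ERBB4 that binds heparin. It read 2.28, 2.56, 2.65 and 2.25 in KO 1 to KO 4 and 2.80, 2.13, 2.78 and 3.10 in WT 1 to WT 4. WT 2 was the lowest of the 8 arrays and the other WT arrays were the 3 highest, so the groups overlapped, with a difference of -0.27 ± 0.20 (interval -0.72 to 0.18, limma adjusted p = 0.338). It was -0.46 without WT 2 (adjusted p = 0.0672), -0.13 without WT 4 and -0.07 among males only. Btc encodes betacellulin, which shares both of these receptors. It read 2.59, 2.39, 2.35 and 2.34 in KO 1 to KO 4 and 2.21, 2.73, 2.43 and 2.00 in WT 1 to WT 4. The KO arrays lay within the range of the WT arrays (difference 0.08 ± 0.16, interval -0.28 to 0.44, limma adjusted p = 0.733), and the sign turned without WT 4 (-0.04) and among males only (-0.01). In GRCm38.p6 the ligand genes Epgn, Ereg, Areg and Btc follow one another with 0 other protein-coding genes between them. Of these neighbours, Epgn, named after its values were seen, differed by -0.38 ± 0.17 (limma adjusted p = 0.133).

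The genes around the receptors and ligands were taken from lists made by role. Calls of higher genes grew more common up to a mean of 5 to 6 and less common above it. They made up 5.07% of genes with a mean of 2 to 3 and 22.9% at 3 to 4. At 6 to 8 they made up 33.1%, and at 8 or above 22%. Counts in a list thus stand beside the shares at its level, among them the 36.6% and 39.7% given above. They do not stand beside the 14.6% of all genes, and a share near that of the level is no result about a list. Among other EGF family ligands, 0 of 5 measured genes rose, 1 fell, and the median was -0.30. The fall was that of the neuregulin Nrg3 (-0.36 ± 0.11, adjusted p = 0.0409), which read 1.32 to 1.47 in KO and 1.59 to 1.82 in WT. It lost its call with the replicate number as a block and in 12 other alternatives.

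Among genes that shed or traffic the ligands, 4 of 16 measured genes rose (25%) and 0 fell, and the median was 0.31. Their mean level was 4.42 to 4.96 in KO arrays and 4.18 to 4.32 in WT arrays. Of all genes with a mean of 4 to 5, 36.6% passed as higher and the median was 0.45, so the list as a whole did not stand out. Rhbdf1, encoding iRhom1 and named outside the rule, passed as lower after repeated quantile normalization (-0.72), cyclic loess (-0.70), without WT 2 and with array weights. Adam17, the main protease that releases TGF-alpha and HB-EGF, read 4.86, 5.26, 4.98 and 5.74 in KO 1 to KO 4, against 4.23, 4.23, 4.13 and 3.94 in WT 1 to WT 4, a rise of 1.07 ± 0.19 (limma adjusted p = 0.00584). Rhbdf2, encoding the inactive rhomboid iRhom2 that brings ADAM17 to the cell surface, read 4.74, 5.07, 4.76 and 5.01 in KO 1 to KO 4, against 3.68, 3.55, 3.30 and 3.77 in WT 1 to WT 4, a rise of 1.32 ± 0.14 (adjusted p = 0.00126). The groups did not overlap in either gene, and both calls held in all 18 alternatives, while the list's count was 2 under repeated quantile normalization, cyclic loess or with males only. Adam9 (0.90 ± 0.19) and Adam10 (0.50 ± 0.13), which sheds EGF and betacellulin, rose too, but both lost their call under repeated quantile normalization, cyclic loess and among males only, and Adam10 also without KO 2, KO 3, KO 4 or WT 4.

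**Figure D3:**
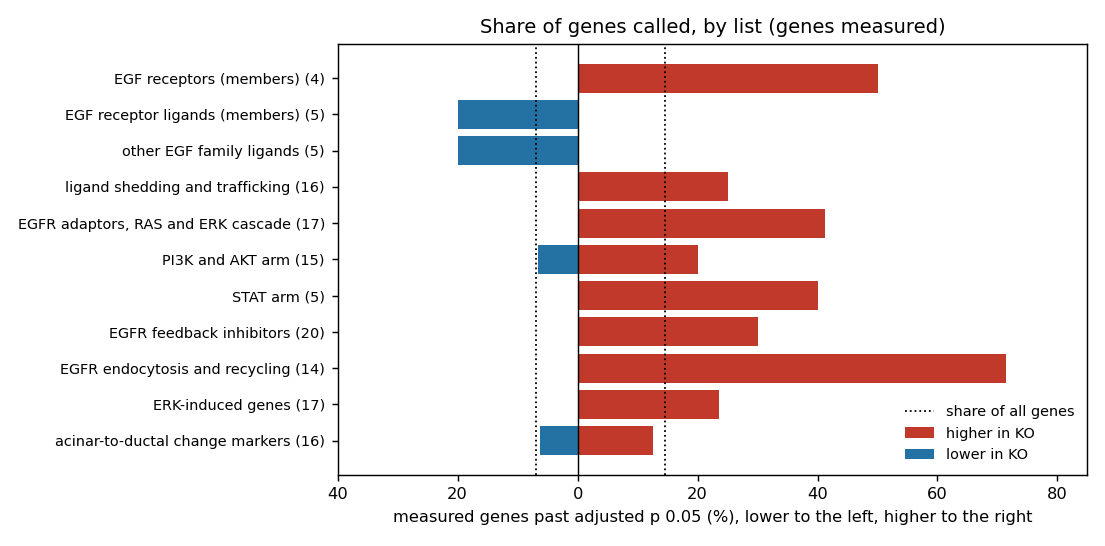
Share of the measured genes of each list that passed an adjusted p of 0.05 (limma), higher in KO to the right and lower in KO to the left. The number of measured genes is in brackets. Dotted lines mark 14.6% higher and 6.99% lower over all genes, without regard to level. Genes with a mean of 3 to 6 passed as higher more often, at 22.9% to 39.7%. A bar past the dotted line is thus no result by itself. The endocytosis list had the longest bar (10 of 14 genes higher), and both ligand lists had bars to the left only, 1 gene each.

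Downstream of the receptors, 7 of 17 measured adaptor, RAS and ERK cascade genes rose and 0 fell, with a median of 0.41. They included the kinase Araf (0.83 ± 0.14), the docking protein Gab2 (1.10 ± 0.20), the RAS inhibitor Nf1 (0.77 ± 0.16) and the adaptor Grb2 (0.66 ± 0.15), with adjusted p from 0.00568 to 0.0174. The count was 0 after repeated quantile normalization, 1 after cyclic loess (with 1 lower, the kinase Map2k2, -0.45), 2 among males only, and 4 without KO 2, KO 4 or WT 2. In the PI3K and AKT list 3 of 15 measured genes rose, 1 fell, and the median was 0.29. The fall was that of the kinase Akt1, which read 6.48, 6.42, 6.61 and 6.65 in KO 1 to KO 4, against 7.15, 7.36, 7.65 and 7.27 in WT 1 to WT 4. Its difference of -0.82 ± 0.13 (limma adjusted p = 0.00478) was against the direction of the list's median and passed in all 18 alternatives. The inhibitor Tsc1 (0.85 ± 0.19), the catalytic subunit Pik3cb (0.83 ± 0.20) and the mTORC2 subunit Rictor (0.55 ± 0.14) rose, and that list had 0 rises after repeated quantile normalization, 1 after cyclic loess, 0 among males only and 1 without KO 4; the regulatory subunit Pik3r1 passed as lower after repeated quantile normalization (-0.60) and cyclic loess (-0.61). In the STAT list 2 of 5 measured genes rose and 0 fell (median 0.55), Jak2 by 1.34 ± 0.24 (adjusted p = 0.00597) and Stat5b by 0.80 ± 0.23 (adjusted p = 0.0353), the second with overlapping groups and a call lost without KO 2, KO 3, KO 4, WT 1, WT 2 or WT 3. That count was 0 among males only, 1 after repeated quantile normalization and 1 after cyclic loess, Jak2 being the gene that remained. The adaptor, PI3K and STAT lists had mean levels between 4.56 and 5.73 in every array. Of all genes with a mean of 4 to 5, 36.6% passed as higher, and of those at 5 to 6, 39.7%. The shares that rose in the adaptor list (41.2%) and the STAT list (40%) lay near these, and that of the PI3K list lay under them. None of these shares is thus a result about its list.

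Of genes for endocytosis and recycling of the receptor, 10 of 14 measured genes rose (71.4%) and 0 fell, with a median of 0.80. Their mean level was 6.11 to 6.26 in KO arrays and 5.29 to 5.60 in WT arrays. Of all genes with a mean of 5 to 6, 39.7% passed as higher, and of those at 6 to 8, 33.1%. The clathrin heavy chain Cltc (1.13 ± 0.15), the receptor substrate Eps15 (1.09 ± 0.18), the adaptor subunit Ap2m1 (0.68 ± 0.11) and the deubiquitinase Usp8 (1.01 ± 0.18) had the smallest p (adjusted p from 0.00239 to 0.00695). The list's count was 3 after repeated quantile normalization, 4 after cyclic loess and 3 among males only. Epn1, encoding the endocytic adaptor epsin 1 and named outside the rule, differed by -0.42 ± 0.15 (limma adjusted p = 0.0652) and passed as lower after repeated quantile normalization (-0.83), cyclic loess (-0.83), without KO 1 or WT 1 and with array weights. Most of these proteins serve all membrane traffic and not this receptor alone.

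Among feedback inhibitors of the pathway, 6 of 20 measured genes rose (30%) while 0 fell, and the median was 0.46. Their mean level was 4.10 to 4.47 in KO arrays and 3.78 to 4.04 in WT arrays. Of all genes with a mean of 3 to 4, 22.9% passed as higher, and of those at 4 to 5, 36.6%. The share of the list lay between these and is no result about the list. The ubiquitin ligases Rnf41 (0.89 ± 0.14), which acts on ERBB3, and Cbl (1.20 ± 0.24), which acts on EGFR, rose, as did the RAS-ERK inhibitors Spred2 (0.73 ± 0.13) and Spred1 (1.07 ± 0.22). Adjusted p ran from 0.00466 to 0.00994, and the calls of Rnf41 and Spred2 held in all 18 alternatives. The ERK phosphatase Dusp6, named after its values were seen, read 4.10, 4.87, 4.41 and 4.96 in KO 1 to KO 4, against 2.82, 3.15, 3.42 and 3.95 in WT 1 to WT 4, a rise of 1.25 ± 0.26 (adjusted p = 0.0116). With the mean of its rows in place of the brightest row the change was 0.51 (adjusted p = 0.0377). Errfi1 and Lrig1, which bind and restrain EGFR itself and are also named outside the rule, did not pass (0.57 ± 0.36, limma adjusted p = 0.264, and 0.05 ± 0.18, adjusted p = 0.838). The list's count was 3 after repeated quantile normalization and 3 after cyclic loess, and in both 1 gene, the receptor-type phosphatase Ptprj, passed as lower (-0.70 and -0.72).

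The ERK-induced list had 4 of 17 measured genes higher in KO (23.5%) and 0 lower, with a median of 0.02. Its mean level was 3.24 to 3.48 in KO arrays and 2.98 to 3.45 in WT arrays. Of all genes with a mean of 3 to 4, 22.9% passed as higher. In this list 2 were higher without KO 1, KO 3 or WT 4, among males only, after repeated quantile normalization and after cyclic loess. Lower calls appeared in some alternatives: Egr3 (-0.53 ± 0.18, limma adjusted p = 0.0599 as reported) passed as lower with the replicate number as a block (adjusted p = 0.0331), without WT 1 and with array weights, and Fosb (-0.56 ± 0.21, adjusted p = 0.084) without WT 1 and with array weights. Both are immediate early transcription factors and are named outside the rule. Egr1, an immediate early transcription factor, read 3.89, 3.64, 4.18 and 3.25 in KO 1 to KO 4, against 1.77, 2.34, 2.07 and 2.10 in WT 1 to WT 4. It rose by 1.67 ± 0.21 (limma adjusted p = 0.00204), and its groups lay far apart. Ier3, an early response gene, read 4.83, 5.65, 5.76 and 5.41 in KO 1 to KO 4, against 3.90, 4.46, 3.83 and 3.60 in WT 1 to WT 4, a rise of 1.46 ± 0.24 (adjusted p = 0.00457). Both calls held in every alternative that tested them (17 for Egr1 and 18 for Ier3). Etv5 (0.76 ± 0.20) and Ier2 (0.57 ± 0.16) rose with calls that were lost under repeated quantile normalization, cyclic loess, among males only and in several settings that left out an array. With the mean of its rows in place of the brightest row Etv5 changed by 0.25 (limma adjusted p = 0.327) and lost its call. Fos (0.02 ± 0.16, limma adjusted p = 0.92) and Myc (-0.26 ± 0.18, adjusted p = 0.285), named outside the rule, did not pass, and Myc passed as lower after repeated quantile normalization (-0.66) and cyclic loess (-0.66).

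**Figure D4:**
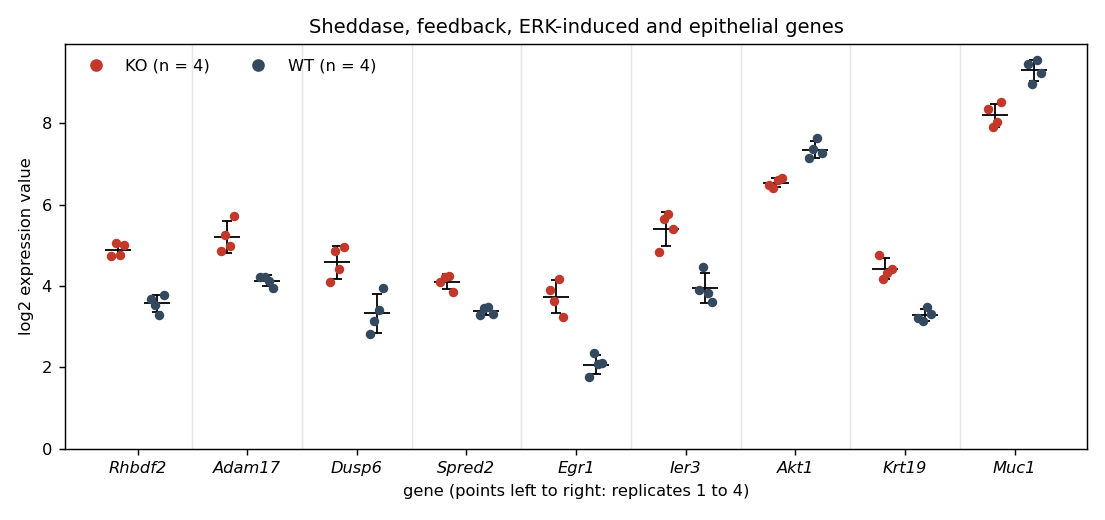
Log2 expression value (vertical axis) of genes around the receptors in each array, points being replicates 1 to 4, KO to the left of WT, with mean and SD (n = 4 each). The groups do not overlap in any of the 9 genes: Rhbdf2, Adam17, Dusp6, Spred2, Egr1, Ier3 and Krt19 are higher in KO, and Akt1 and Muc1 lower.

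Among markers of acinar-to-ductal change, 2 of 16 measured genes rose and 1 fell, and with the replicate number as a block 6 rose and 1 fell. Their mean level was 4.91 to 5.07 in KO arrays and 4.61 to 4.75 in WT arrays. Of all genes with a mean of 4 to 5, 36.6% passed as higher (median change 0.45), and of those at 5 to 6, 39.7% (median 0.50). The share of these markers that rose in the reported fit lay under both. The count of rises was 5 without KO 1, 4 without WT 2, 7 after median centring, and 1 without KO 4, WT 1, WT 3 or WT 4. The duct keratin Krt19 read 4.77, 4.17, 4.33 and 4.43 in KO 1 to KO 4, against 3.22, 3.15, 3.49 and 3.33 in WT 1 to WT 4, a rise of 1.13 ± 0.15 (limma adjusted p = 0.00239). The hyaluronan receptor Cd44 rose by 1.68 ± 0.48 (limma adjusted p = 0.0352) with overlapping groups. Its call held in 10 of 18 alternatives. It was lost under repeated quantile normalization, cyclic loess, among males only, and without KO 2, KO 4, WT 1, WT 3 or WT 4. The mucin Muc1 had a change of -1.10 ± 0.18 (adjusted p = 0.00456). The median was 0.38, and after repeated quantile normalization 1 gene of this list rose and 4 fell. Sox9, a duct transcription factor named outside the rule, did not pass (-0.47 ± 0.17, limma adjusted p = 0.069). It passed as lower after repeated quantile normalization (-0.89, adjusted p = 0.00946) and after cyclic loess (-0.87, adjusted p = 0.00812).

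Markers of cell types were set beside these results, since whole pancreas holds many kinds of cell, and in such samples fewer cells of a type and less RNA per cell cannot be told apart. Of macrophage markers 7 of 14 were higher and 0 lower in KO, with a mean level of 4.77 to 6.19 in KO arrays and 3.51 to 4.93 in WT arrays. Stellate and fibroblast markers had 2 of 12 higher (mean level 5.32 to 7.04 in KO and 4.76 to 5.91 in WT) and duct markers 2 of 10 higher and 1 lower (5.08 to 5.39 in KO and 4.88 to 5.15 in WT). Of acinar markers 0 of 12 were higher and 5 lower. Of all genes, 36.6% of those with a mean of 4 to 5 and 39.7% of those at 5 to 6 passed as higher. At a mean of 8 or above 22% of all genes passed as higher and 14.2% as lower. The shares of stellate and duct markers that were higher lay under those of all genes at their level. Endothelial markers had 0 of 10 called, neutrophil markers 0 of 8, other islet markers 0 of 7, mast cell markers 0 of 8, B and plasma cell markers 0 of 6 and adipocyte markers 0 of 7, while 2 of 9 beta cell markers and 1 of 8 T and NK cell markers were lower. Lower calls made up 12.2% of all genes with a mean of 2 to 3 and 5.02% of those at 3 to 4. KO 1 had the lowest macrophage level of the KO arrays and also their lowest Egfr and their highest Erbb3. WT 1 had the lowest macrophage level of the WT arrays and also their highest Erbb3. For Egfr the WT arrays went the other way, since WT 1 (4.80) lay above WT 2 (4.48), which had their highest macrophage level. The part of these cell types in the changes of Egfr and Erbb3 was not tested.

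**Figure D5:**
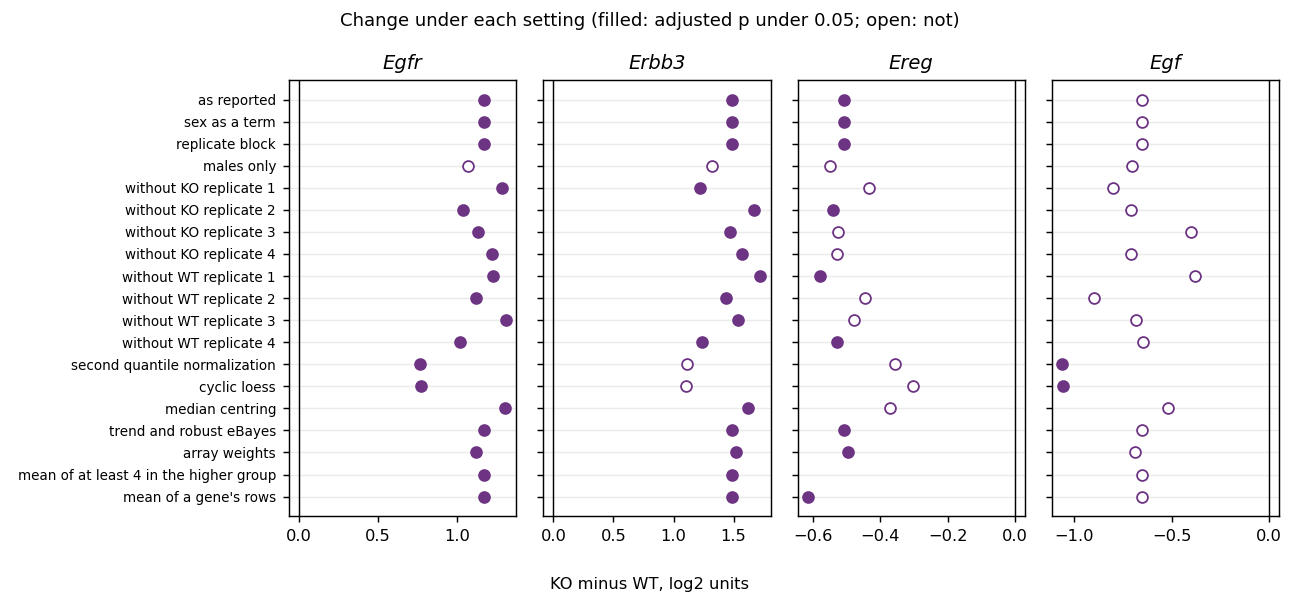
Change (KO minus WT, log2 units, horizontal axis, scaled separately in each panel) of Egfr, Erbb3, Ereg and Egf as reported and under each alternative; filled points passed an adjusted p of 0.05 (limma) and open points did not. No value of the 4 genes changed sign, Egfr was open only among males only, and Egf was filled only under repeated quantile normalization and cyclic loess.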

How the data were processed

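Total RNA of pancreas was measured on 8 arrays. The deposited table holds normalized log2 values in 41345 rows and 8 columns; the submitters' processing notes name the tools oligo, RMA and limma without versions, and the log base, not stated there, was taken as 2 from the range of the values. Rows were named through the platform annotation: 23521 had 1 symbol, 1814 several and 16010 none. For a gene in several rows the row of highest mean was kept, giving 22180 genes. Genotype was tested with limma 3.58.1 in R 4.3.3 (lmFit, eBayes), adjusting over all genes at 0.05; single values had an exact permutation test over 70 splits, with arrays taken as unpaired. The steps were run on simulated data with independent normal noise and 200 changed genes of 22180. Of changes of 1 log2 unit 79% were recovered, and of changes of 2 log2 units 96%. Unchanged genes made up 7.89% of the calls. Unlike these arrays, the simulation held no wider spread of values in KO and few changed genes.

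The members, lists and tests were chosen with earlier results of these data known. Named by rule were the members, Lmna and up to 4 called genes of smallest p in each pathway list (3 in cell type lists, given here as counts); others, among them genes called in an alternative alone, are outside it and were chosen after their values were seen. No label or file used here gives a scan date or batch.

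The replicate numbers 1 to 4 were used to match arrays for the same-numbered differences and the replicate block. Deviations from the group means correlated at 0.263, 0.165, 0.11 and 0.138 between same-numbered arrays. Between arrays of different number they correlated from -0.209 to 0.125, so the ranges overlap. Replicate 4 was also the female of each genotype, and no label states a shared litter or day. Whether the arrays form pairs is thus not settled, and the reported fit took them as unpaired.

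Alternatives were a term for sex, a replicate block, a fit of males only, leaving out single arrays, quantile normalization repeated on the table, cyclic loess, median centring, eBayes with trend and robust settings, array weights, dropping genes whose higher group had a mean under 4, averaging a gene's rows, and testing every row. Promoter sequences came from RefSeq tables.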

Additional observations from a re-analysis of the deposited data

Results flagged for a closer look

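In Ereg, the KO 1 value of 1.45 stood apart from the other KO arrays (1.73 to 1.77): its gap to the nearest of them made up 0.872 of the range of the 4 KO arrays, above the 95% critical value of Dixon's test. The Ereg call was lost without KO 1 (-0.44, limma adjusted p = 0.0603). Of the 18 groups of 4 arrays examined, this was the one that passed, and chance gives about 1 in 20.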

How the results depend on the processing

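The count of members higher in KO, 2, was 1 after repeated quantile normalization, 1 after cyclic loess and 0 among males only; leaving out each array in turn it was 2. The count of members lower, 1, was 0 among males only, 0 after median centring and 0 with the filter on a mean of at least 4, which does not test Ereg; it ran from 0 to 1 when an array was left out. After repeated quantile normalization and cyclic loess the 1 lower member was Egf. Over all genes the 3241 higher calls were 770 among males only, 1228 after repeated quantile normalization, 1521 after cyclic loess and 1781 to 3713 with an array left out. The 1551 lower calls were 145 among males only, 615 after median centring, 333 with the filter, which tests 6991 genes, and 459 to 2357 with an array left out. Median centring moved the median of all genes to 0.08, against -0.06 as reported. With the replicate number as a block 2 members were higher and 1 lower, as without it, and the calls were 3698 higher and 1348 lower. The block changed no member's call. Of the pathway genes, Sh3kbp1, Anxa1, Klf4, Klf5, Mmp7 and Notch2 gained a call as higher with it, and Egr3 gained one as lower. Nrg3 and Ptpn11 lost theirs. Ptpn11, an ERK cascade phosphatase named outside the rule, turned in direction after repeated quantile normalization (-0.017). The genotype by sex count was 0 wherever it could be computed. The causes were not tested, and signal over background is unknown here.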
